A study of Mus musculus with 5 samples.

Results

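Genes of vesicle trafficking were examined in lungs of bleomycin-treated 129svJ mice, an inbred strain. The members were chosen by symbol in the platform's annotation: numbered Rab, Arf, Snx, Vps, Stx and Sec genes, Vamp genes, COPI coat genes (Copa, Copb, Cope, Copg, Copz), subunits of the adaptor complexes AP-1 to AP-4 and Trappc genes. The rule matched 182 symbols on 204 features. Of these, 137 symbols had at least 1 feature with values on 4 or more of the 5 arrays and were analysed, out of 10081 genes and unnamed features in all. The other 45 comprised 22 with no value on any array and 23 with values on 1 to 3 arrays. They include Rab5c, Rab18, Rab2a, Rab1b, Vps26a, Vps33a, Stx3, Stx7, Vamp2, Sec23a, Sec24c and Sec61a1, so subunits of several complexes are not described here. The rule also takes symbols with other roles, among them Vps72, a chromatin protein, and Rab10os, a transcript opposite to Rab10.

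Each array compared amplified lung RNA of 1 mouse given bleomycin, an antibiotic that breaks DNA and injures the lung, with 1 shared pool of amplified lung RNA of control 129svJ mice. The 5 treated mice are the replicates, and the pool is a single control sample without a spread of its own. Dose, route, time, sex, age and the number of mice in the pool are not given by the labels. The log ratios, which were taken as log2, carry no settled direction: the titles name the treated mouse before the pool, but no label gives the dyes. Values are therefore reported as lying below or above 0, without saying in which of mouse and pool the RNA was more abundant. If the logarithms were natural, every fold would be larger. In bulk lung, fewer cells of a type and less RNA per cell cannot be told apart.

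Vesicle traffic moves proteins and lipids between compartments. Proteins enter the endoplasmic reticulum through the Sec61 channel, leave it in COPII vesicles, return from the Golgi in COPI vesicles, and pass between Golgi, endosomes, lysosomes and the plasma membrane in carriers formed by adaptors, clathrin and sorting nexins. Rab and Arf GTPases mark each compartment, tethers such as TRAPP and HOPS hold the arriving vesicle, and SNARE proteins (syntaxins, Vamps) fuse it. In lung, this machinery carries surfactant lipid and protein to the lamellar bodies of type 2 alveolar cells and out of the cell, mucus granules out of secretory cells, and engulfed material to the lysosomes of macrophages.

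The members lay on both sides of 0. By limma with Benjamini-Hochberg adjustment over all 10081 genes and features, 69 of the 137 members (50.4%) passed the threshold of adjusted p under 0.05, beside 49.6% of everything tested. Below 0 lay 30 members (21.9%), against 23.9% of everything tested, and above 0 lay 39 (28.5%), against 25.8%. Both shares are near the background. The median log2 ratio over the members was 0.03, and over everything tested −0.0066. Among members past the threshold the median size was 0.46 on the log2 scale, a 1.38-fold difference. Only 4 reached 2-fold, Rab4b below 0 and Stx5a, Arf1 and Sec24d above 0, beside 5.59% of everything tested that passed and reached 2-fold. Whether called or not, 31 members had every measured array below 0 (28% of everything tested did) and 44 had every array above 0 (29.3%). Of the 69 called members 61 were among them, beside 4734 of the 5002 called over everything tested.

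All arrays share the pool, so any way in which that single RNA sample is unusual enters every ratio alike. When the pool was treated as a lone control mouse with the same variance as the treated mice, 9 members passed, beside 5.09% of everything tested. They were Rab4b, Cope, Sec11c and Trappc4 below 0 (2.11% of everything tested lay there) and Stx5a, Sec24d, Trappc8, Copg2 and Rab7 above 0 (2.98%). Tested against a minimum size of 1.2-fold, 9 members passed below 0 (8.04% of everything tested) and 15 above (10.3%), beside 18.3% on either side.

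Marker lists of lung cell types also lay off 0 on these arrays. Of 14 macrophage and monocyte markers 12 passed below 0 and 1 above, with list medians in the mice between −1.42 and −0.87. Of 14 alveolar and club cell markers 8 passed above 0 and none below (medians 0.28 to 0.82), and of 10 endothelial markers 9 above and none below (0.47 to 1.19). Skeletal muscle markers had 9 of 12 below 0 and none above, with medians of −3.94, −3.02, −0.10, −0.56 and −2.23 in mice 1 to 5. Neutrophil markers had 2 of 8 below and 1 above, and lymphocyte markers 2 of 10 below and 1 above. A list of 9 genes used to check the tissue label had 7 measured, of which 4 passed above 0 and none below. It repeats genes counted above, 6 from the alveolar and club cell list and 1 (Pecam1, an endothelial gene of any organ) from the endothelial list. The part of these cell types in the members' ratios was not tested.

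Lowest of all members was Rab4b, a GTPase of early endosomes that directs recycling to the cell surface. Its log2 ratios in mice 1 to 5 were −1.201, −1.31, −1.18, −1.21 and −1.23, a mean of −1.23 ± 0.053 (SD, n = 5; a 2.34-fold difference; adjusted p = 1.77e-05). The 5 mice were almost alike, and this was the smallest spread among the 16 members farthest from 0. Cope, the epsilon subunit of the COPI coat, stood at −1.11, −1.08, −0.87, −1.03 and −0.88 (mean −0.99 ± 0.11; adjusted p = 4.23e-05). Sec11c, a catalytic subunit of the signal peptidase that cuts signal peptides from proteins entering the endoplasmic reticulum, stood at −1.21, −0.77, −0.89, −0.85 and −1.09 (mean −0.96 ± 0.18; adjusted p = 0.000124). Sec61b, the beta subunit of the translocon channel, stood at −1.22, −0.72, −0.53, −0.80 and −0.75 (mean −0.81 ± 0.25; adjusted p = 0.000667). All 5 mice lay well below 0 for these 3 genes, and mouse 1 was lowest in each.

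Next in order was Trappc4, a core subunit of the TRAPP tether, at −0.89, −0.61, −0.81, −0.83 and −0.86 (mean −0.80 ± 0.11; adjusted p = 8.35e-05), with mouse 2 nearest to 0. Arf2, a class I Arf GTPase of the Golgi, stood at −0.73, −0.29, −0.87, −0.68 and −0.59 (mean −0.63 ± 0.22; adjusted p = 0.00109). Ap1s1, the sigma subunit of the AP-1 adaptor of the trans-Golgi network, stood at −0.96, −0.58, −0.44, −0.35 and −0.73 (mean −0.61 ± 0.24; adjusted p = 0.00186). Every mouse lay below 0 for both, with a wider spread than for Rab4b. Rab10, a GTPase of exocytosis from the trans-Golgi network and of glucose transporter delivery, ranged from −0.93 in mouse 5 to −0.19 in mouse 1 (mean −0.57 ± 0.27; adjusted p = 0.00335).

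Farthest above 0 was Stx5a, the syntaxin of the early Golgi that fuses vesicles arriving from the endoplasmic reticulum. Its log2 ratios were 1.10, 1.21, 1.41, 1.93 and 1.496, a mean of 1.43 ± 0.32 (SD, n = 5; a 2.69-fold difference; adjusted p = 0.000143). Every mouse exceeded a 2-fold difference, and mouse 4 was highest. Arf1, the class I Arf that recruits COPI and AP-1 to Golgi membranes, stood at 1.06, 1.35, 1.43, 1.63 and 0.53 (mean 1.2 ± 0.43; 2.3-fold; adjusted p = 0.000811), with mouse 5 lowest. Sec24d, a COPII subunit that selects cargo, stood at 0.90, 1.14, 1.10, 1.27 and 1.02 (mean 1.09 ± 0.14; 2.12-fold; adjusted p = 4.23e-05). Its 5 mice kept close together.

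Rab31, a GTPase of traffic between the trans-Golgi network and endosomes, followed at 0.73, 0.55, 1.07, 1.24 and 0.86 (mean 0.89 ± 0.27; adjusted p = 0.000559). Trappc8, another subunit of the TRAPP tether, stood at 0.73, 0.72, 0.69, 0.87 and 0.80 (mean 0.76 ± 0.073, adjusted p = 6.52e-05). The range of Trappc8 was among the narrowest of these genes. Stx16, a syntaxin of endosome to Golgi traffic, stood at 1.05, 0.086, 0.64, 0.63 and 1.02 (mean 0.68 ± 0.39; adjusted p = 0.00618), and mouse 2 lay near 0. Copg2, one of the gamma subunits of COPI, stood at 0.51, 0.61, 0.81, 0.63 and 0.70 (mean 0.65 ± 0.11; adjusted p = 0.000191). Rab27a, which docks secretory granules and lysosome-related organelles at the plasma membrane, averaged 0.65 ± 0.24 (adjusted p = 0.00137), with 4 mice between 0.65 and 0.81 and mouse 5 at 0.24.

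**Figure D1:**
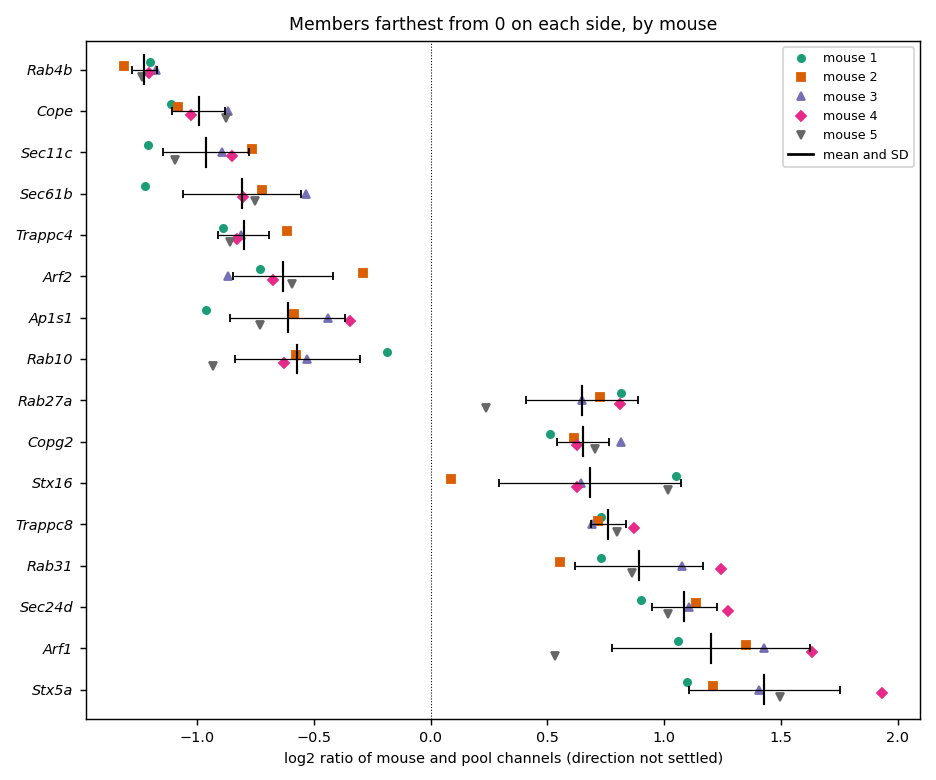
Log2 ratio of mouse and pool channels (x axis, direction not settled) for the 8 members lowest and the 8 highest in mean among those past the threshold with all mice on 1 side of 0 (y axis). Symbols are the 5 mice, bars the mean and SD. The means run from −1.23 for Rab4b to 1.43 for Stx5a.

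The promoters of the members were searched for 11 short motifs, on both strands, in the 300 bases that RefSeq's GRCm38.p6 annotation places around each start site (250 before and 50 after), which matched 112 of the 137 members. The motif TGACGTGG, the core of the unfolded protein response element that the factors XBP1, ATF6 and CREB3 relatives can bind, was found in 5 members: Stx5a, Arf1, Sec24d, Copb2 and Copb1. That is 4.46% of the members with a promoter, beside 1.08% of the 7189 tested genes with a promoter and 0.714% of all 27025 genes in the promoter table. The 5 include the 3 members at least 2-fold above 0. Copb2 averaged 0.51 ± 0.15 and Copb1 0.13 ± 0.17 (the second did not pass, adjusted p = 0.185), so 4 of the 5 passed above 0 and none below. Among the partner genes described further below, Kdelr3 also holds the motif and passed below 0 (−0.46 ± 0.082). Scfd1 holds it too and did not pass (0.15 ± 0.14). Of all 78 tested genes with the motif, 33.3% passed above 0 and 19.2% below, beside 25.8% and 23.9% of everything tested. The 78 include the 5 members, and everything tested includes genes without a promoter here. These shares are therefore no separate test of the motif. The 5 promoters are shown because they share the motif and include those of the 3 members farthest above 0. They are written 5′ to 3′ along the gene's strand, with the motif or its reverse complement in capitals.
Stx5a (chr19:8741174-8741473, plus strand): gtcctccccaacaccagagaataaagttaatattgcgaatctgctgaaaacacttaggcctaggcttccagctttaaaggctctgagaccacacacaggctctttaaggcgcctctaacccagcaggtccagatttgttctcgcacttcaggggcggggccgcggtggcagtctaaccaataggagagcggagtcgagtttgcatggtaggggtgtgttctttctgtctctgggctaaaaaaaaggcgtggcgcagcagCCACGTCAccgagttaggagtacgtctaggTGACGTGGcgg
Arf1 (chr11:59228218-59228517, minus strand): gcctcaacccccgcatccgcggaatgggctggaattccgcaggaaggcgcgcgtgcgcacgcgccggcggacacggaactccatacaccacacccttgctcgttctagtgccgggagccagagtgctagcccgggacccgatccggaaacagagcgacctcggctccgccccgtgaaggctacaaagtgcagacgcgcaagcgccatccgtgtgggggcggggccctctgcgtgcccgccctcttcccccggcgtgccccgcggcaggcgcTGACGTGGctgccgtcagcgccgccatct
Sec24d (chr3:123267246-123267545, plus strand): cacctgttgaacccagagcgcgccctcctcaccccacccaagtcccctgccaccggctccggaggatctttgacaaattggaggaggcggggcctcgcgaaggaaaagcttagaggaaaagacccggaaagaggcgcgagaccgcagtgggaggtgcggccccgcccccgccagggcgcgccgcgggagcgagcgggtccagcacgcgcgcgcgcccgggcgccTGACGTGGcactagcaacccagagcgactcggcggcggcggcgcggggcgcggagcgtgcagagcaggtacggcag
Copb2 (chr9:98563481-98563780, plus strand): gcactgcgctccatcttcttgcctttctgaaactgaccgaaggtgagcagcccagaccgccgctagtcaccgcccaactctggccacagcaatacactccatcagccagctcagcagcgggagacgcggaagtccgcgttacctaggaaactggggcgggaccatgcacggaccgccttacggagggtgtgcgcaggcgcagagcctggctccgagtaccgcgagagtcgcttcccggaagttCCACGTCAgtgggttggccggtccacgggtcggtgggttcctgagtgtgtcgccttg
Copb1 (chr7:114254631-114254930, minus strand): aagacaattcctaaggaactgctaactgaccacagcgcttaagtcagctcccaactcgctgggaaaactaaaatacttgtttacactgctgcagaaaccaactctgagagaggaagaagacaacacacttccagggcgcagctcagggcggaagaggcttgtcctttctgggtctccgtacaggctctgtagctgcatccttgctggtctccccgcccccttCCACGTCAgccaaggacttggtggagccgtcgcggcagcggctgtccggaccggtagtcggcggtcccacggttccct
Stx5a holds the motif once on each strand, at 10 and 40 bases from its start site. In Arf1, whose alternative start sites share the match, it lies at 22 bases after the start shown, and in Sec24d at 26, in Copb1 at 28 and in Copb2 at 7 bases before it. The other motifs are given with their share of members, of tested genes and of all genes in the table. They were its shorter form TGACGTG, with which it overlaps (5.36%, 3.09% and 2.22%), the cyclic AMP response element TGACGTCA (3.57%, 3.42% and 2.03%), and the lysosomal regulator element TCACGTGA (3.57%, 1.92% and 1.12%) with its parts TCACGTG (8.04%, 6.64% and 4.29%) and CACGTG (12.5%, 11.3% and 8.09%). Also searched were the ER stress response element (0 members, 0.209% and 0.137%) and its 3′ end CCACG, which overlaps the reverse complement of TGACGTGG (55.4%, 48.6% and 35.5%). The last were the overlapping ETS cores CCGGAAG (21.4%, 17.3% and 9.93%) and TTCCGG (42%, 27.5% and 16.7%), and the ZNF143 core element (0 members, 0.612% and 0.322%). For TGACGTCA and CACGTG the members' share was near that of tested genes. A match is only a string of letters in this window, and the motifs were picked with the members' values in view.

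Counts by role stand beside the background of 23.9% of everything tested called below 0 and 25.8% above. Most roles had called members on both sides of 0. The exceptions with any call were the translocon with signal peptidase and the ESCRT genes, below 0, and retromer with retriever and the remaining Vps and Sec genes, above 0. Of 35 measured Rab GTPases, 5 passed below 0, 10 above 0 and 20 did not pass, with a median of 0.02. Besides Rab4b and Rab10 the members below 0 were Rab13, a GTPase of tight junction traffic (−0.46 ± 0.39; −0.99 in mouse 3 but 0.024 in mouse 5, and lost without mouse 1, 2 or 3 at adjusted p from 0.0648 to 0.0768), Rab24 (−0.37 ± 0.22) and Rab43 (−0.23 ± 0.092). Rab7, the GTPase of late endosomes and lysosomes, stood at 0.61, 0.47, 0.55, 0.60 and 0.69 (mean 0.58 ± 0.081; adjusted p = 0.000193), a narrow range above 0. Rab38, which in mice serves lysosome-related organelles such as melanosomes and the lamellar bodies of type 2 cells, stood at 0.31, 0.57, 0.67, 0.48 and 0.76 (mean 0.56 ± 0.17; adjusted p = 0.000945). Rab17, an epithelial GTPase of transcytosis, averaged 0.52 ± 0.18, Rab28 0.62 ± 0.27 and the Golgi GTPase Rab33b 0.46 ± 0.14. The other 3 above 0 were Rab27b at 0.24 ± 0.093, Rab11b of recycling endosomes at 0.30 ± 0.20 and Rab2b of traffic between endoplasmic reticulum and Golgi at 0.30 ± 0.23. The call of Rab11b was lost without mouse 1, 3, 4 or 5 (adjusted p from 0.0518 to 0.0654) and that of Rab2b without mouse 1, 2 or 3 (adjusted p from 0.059 to 0.0869). Among the 20 that did not pass, Rab1a averaged 0.0088 ± 0.13, Rab5a −0.025 ± 0.26, Rab6a −0.033 ± 0.13, Rab8a 0.045 ± 0.056 and Rab11a −0.039 ± 0.12. The 4 genes with Rab symbols that are not GTPases lay between −0.065 (Rab10os) and 0.04 (Rab5if), and none passed.

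Of 6 Arf GTPases, 3 passed above 0 and 1 below. Arf4 averaged 0.31 ± 0.23 (adjusted p = 0.0246) and Arf5 0.45 ± 0.32 (adjusted p = 0.016), both class II Arfs of the Golgi. The call of Arf4 was lost without mouse 2, 3, 4 or 5 (adjusted p from 0.0535 to 0.0789) and that of Arf5 without mouse 2 (adjusted p = 0.0544). Arf6, the Arf of the plasma membrane, divided the mice: it stood at 0.83 and 0.82 in mice 2 and 3, at 0.12 in mouse 4 and at −0.008 in mouse 1, with no value in mouse 5 (adjusted p = 0.0691; without mouse 1, adjusted p = 0.0315).

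**Figure D2:**
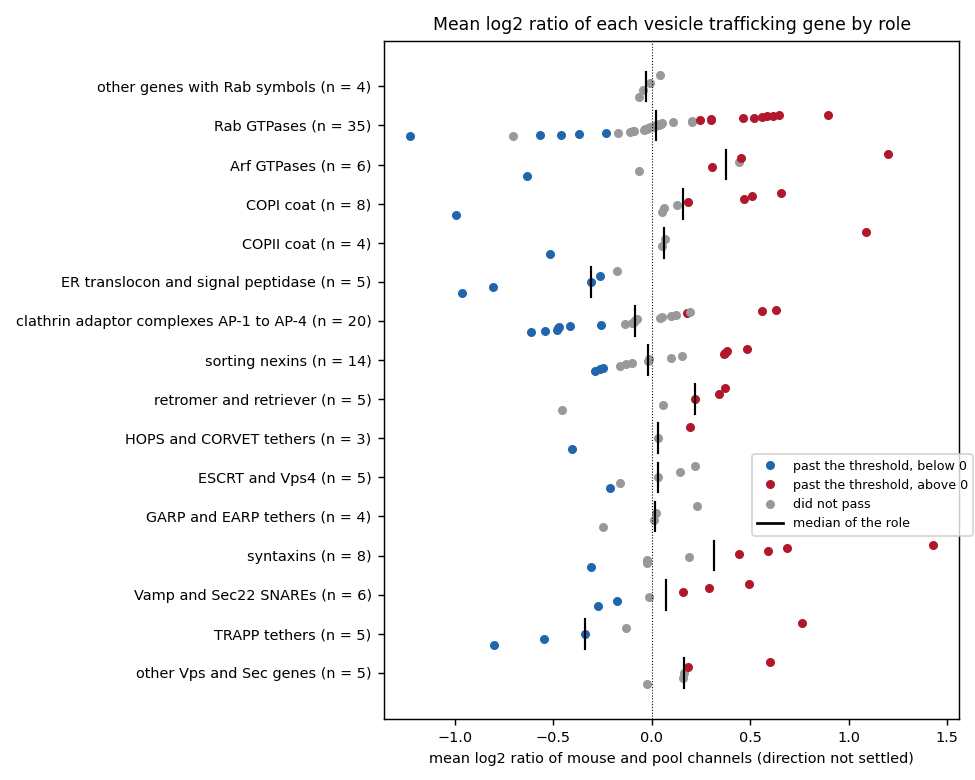
Mean log2 ratio of mouse and pool channels (x axis, direction not settled) of each of the 137 measured members, grouped by role (y axis). Blue points passed below 0, red points passed above 0 and grey points did not pass, and the black line is the median of the role. Most roles have points on both sides, from a median of −0.34 for TRAPP tethers to 0.38 for Arf GTPases.

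Some subunits of single complexes of the early secretory pathway stood far apart. Other roles also spread widely, such as Rab GTPases from −1.23 to 0.89 and Arf GTPases from −0.63 to 1.2. Of 8 measured COPI genes, Cope passed below 0 and 4 above 0. The 4 were Copg2, Copb2 (0.28, 0.46, 0.50, 0.61 and 0.68), Copz1 (0.47 ± 0.19) and Copz2 (0.18 ± 0.097, a call lost without mouse 1, 2, 3 or 4 at adjusted p from 0.0654 to 0.0784). Copa, the alpha subunit, averaged 0.05 ± 0.22 and did not pass. The highest value of Cope in any mouse, −0.87, lay below the lowest value of each other COPI gene. Of 4 COPII genes, Sec24d passed above 0 and Sec13, which is shared between the COPII cage and the nuclear pore, below 0. Sec13 stood at −1.14, −0.46, −0.35, −0.15 and −0.47 (mean −0.52 ± 0.37; adjusted p = 0.0163), with mouse 1 far below the others. Sec23b, the inner coat partner of Sec24, and Sec31a, of the outer coat, averaged 0.053 and 0.069 and did not pass.

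Of 5 translocon and signal peptidase genes, 4 passed below 0 and none above. Besides Sec11c and Sec61b these were Sec61g, the gamma subunit of the channel (−0.31 ± 0.14), and Sec63, a channel partner that recruits the chaperone BiP. Sec63 rested on a pair of features on opposite sides of 0, with means of −0.76 ± 0.26 and 0.23 ± 0.23, and its call was lost without mouse 2, 3, 4 or 5 (adjusted p from 0.0651 to 0.102). Sec11a did not pass (−0.18 ± 0.26). Partners of the translocon and signal peptidase that the symbol rule leaves out lay on both sides. Above 0 passed Ssr1 (1.08 ± 0.22), Tram1 (0.70 ± 0.22), Spcs2 (0.37 ± 0.24) and Spcs3 (1.25 ± 0.20). Spcs1 passed below 0 (−0.57 ± 0.40), and Ssr2, Ssr3 and Ssr4 did not pass. Of 5 TRAPP genes, Trappc4, Trappc2l (−0.55 ± 0.17) and Trappc12 (−0.34 ± 0.14) passed below 0, and Trappc8 passed above 0. In all 5 mice Trappc8 lay above every other TRAPP gene with a value.

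**Figure D3:**
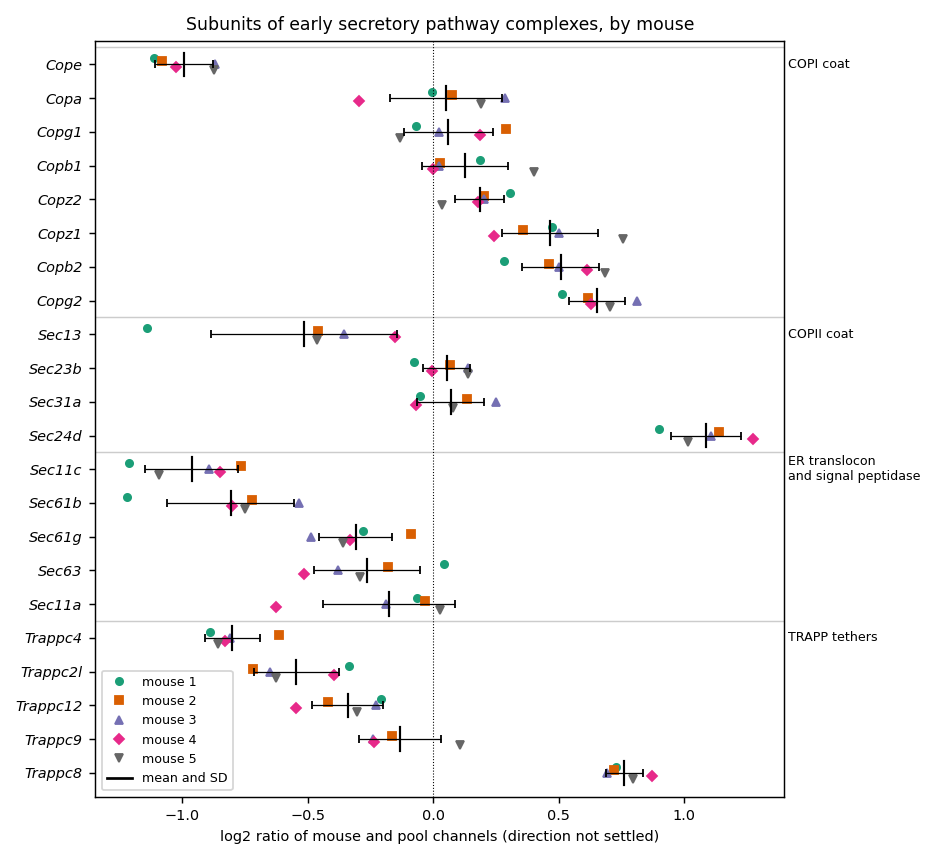
Log2 ratio of mouse and pool channels (x axis, direction not settled) for measured subunits of COPI, COPII, the translocon with signal peptidase, and TRAPP (y axis). Symbols are the 5 mice, bars the mean and SD. Cope (−0.99) and Trappc8 (0.76) stand apart from the other subunits of their complexes in every mouse.

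Among adaptor complexes, which pick cargo for clathrin and other carriers, 7 of 20 genes passed below 0 and 3 above. Below 0 were 3 genes of AP-1 (Ap1s1, Ap1b1 at −0.48 ± 0.20 and Ap1s2 at −0.26 ± 0.20). With them were 2 of AP-2, the adaptor of endocytosis (Ap2b1 at −0.47 ± 0.40 and Ap2m1 at −0.41 ± 0.17 on 4 arrays). The last were 2 of AP-3 (Ap3b2 at −0.54 ± 0.37 and Ap3d1 at −0.48 ± 0.22). For Ap3b2 mouse 1 stood at −1.19 and the other mice between −0.52 and −0.28. Above 0 were Ap3m2 (0.56 ± 0.13; adjusted p = 0.000487), the epithelial AP-1 subunit Ap1m2 (0.18 ± 0.12) and Ap1ar, a regulator of AP-1 and no subunit (0.63 ± 0.32 on 4 arrays). Ap2b1 split the mice, at −0.84, −0.73 and −0.70 in mice 2, 3 and 4 but 0.032 and −0.11 in mice 1 and 5, and missed the threshold without any of the first 3 (adjusted p from 0.0869 to 0.0938). Ap1s2 missed it without mouse 2, 4 or 5 (adjusted p from 0.0983 to 0.106), and Ap1m2 without mouse 1, 3, 4 or 5 (adjusted p from 0.0518 to 0.125). Ap3b1, whose loss in humans causes a form of Hermansky-Pudlak syndrome with lung fibrosis, averaged 0.05 ± 0.17 on 4 arrays and did not pass. None of the 3 AP-4 genes passed.

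Sorting nexins, which bend and sort endosomal membrane, gave 3 of 14 below 0 and 4 above. Snx3, which guides retromer to endosomes, was the most even member of all that passed, at 0.36, 0.36, 0.37, 0.41 and 0.35 (mean 0.37 ± 0.023; adjusted p = 0.000711). Snx2 (0.38 ± 0.097) and Snx9 of endocytosis (0.37 ± 0.20) also lay above 0 in all 5 mice. Snx21 averaged 0.48 ± 0.47 (adjusted p = 0.0438), with mouse 1 at 1.32 on a single feature, since its other feature, with a mean of 0.051 ± 0.11, had no value on that array. Without mouse 1 the mean was 0.28 and the gene passed (adjusted p = 0.00767). It did not pass without mouse 2, 3, 4 or 5 (adjusted p from 0.0564 to 0.076). Below 0 were Snx5 (−0.29 ± 0.11), Snx20 (−0.25 ± 0.13) and Snx1 (−0.26 ± 0.22). The call of Snx1 was lost without mouse 1, 2, 3 or 4 (adjusted p from 0.0765 to 0.105).

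Retromer and retriever return cargo from endosomes to the Golgi and the plasma membrane. Of their 5 measured genes 3 passed above 0 and none below. Vps35, the retromer scaffold, stood at 0.50, 0.47, 0.22, 0.30 and 0.22 (mean 0.34 ± 0.13; adjusted p = 0.00437), and its 2 features gave 0.28 ± 0.12 and 0.40 ± 0.17. Vps26c of retriever averaged 0.37 ± 0.27, with mouse 5 highest at 0.84. Vps35l averaged 0.22 ± 0.15, from features of −0.063 ± 0.15 and 0.50 ± 0.19, and did not pass without mouse 1, 2, 3 or 5 (adjusted p from 0.0589 to 0.104). Vps29, shared by both complexes, stood at −0.14, −0.21, −1.72, −0.35 and 0.14 (mean −0.46 ± 0.73; adjusted p = 0.167). Its mean came largely from mouse 3.

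Other Vps proteins tether and fuse late endosomes or form the ESCRT machinery that buds vesicles into them. Vps11 and Vps16, core subunits of the HOPS and CORVET tethers, lay on opposite sides, Vps11 at −0.47, −0.17, −0.54, −0.43 and −0.43 (mean −0.41 ± 0.14; adjusted p = 0.00226) and Vps16 at 0.17, 0.25, 0.12, 0.24 and 0.20 (mean 0.19 ± 0.053; adjusted p = 0.0133). The ranges of the 2 genes did not overlap. Of 5 ESCRT genes only Vps25 passed, at −0.21 ± 0.13, a call lost without mouse 1, 2, 4 or 5 (adjusted p from 0.0659 to 0.0873). Vps36 averaged 0.22 ± 0.46 and did not pass, and one of its features ranged from −0.76 in mouse 4 to 1.86 in mouse 3. None of the 4 GARP and EARP tether genes passed. For Vps50 features with means of −0.32 ± 0.20 and 0.36 ± 0.17 cancelled in the gene's mean of 0.019. Vps45, the partner of endosomal syntaxins such as Stx16, averaged 0.60 ± 0.25 (adjusted p = 0.00221), with 4 mice between 0.68 and 0.74 and mouse 2 at 0.15. Mouse 2 was also the lowest for Stx16.

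Of 8 syntaxins, 4 passed above 0 and 1 below. Stx2, a plasma membrane syntaxin of epithelia, stood at 0.23, 0.68, 0.51, 0.85 and 0.68 (mean 0.59 ± 0.23; adjusted p = 0.00187), and the Golgi and endosomal syntaxin Stx6 at 0.44 ± 0.32, a call lost without mouse 3 (adjusted p = 0.0643). Stx8 of late endosomes averaged −0.31 ± 0.23, a call lost without mouse 1, 3, 4 or 5 (adjusted p from 0.054 to 0.0624). Of 6 Vamp and Sec22 genes, 3 passed above 0 and 2 below. Vamp7, which fuses late endosomes and lysosomes with the plasma membrane, stood at 0.56, 0.38, 0.29, 1.03 and 0.21 (mean 0.49 ± 0.33; adjusted p = 0.0125), Vamp4 of the trans-Golgi network at 0.29 ± 0.23 and Sec22a at 0.16 ± 0.085. Vamp8, a SNARE of granule release, stood at −0.18 ± 0.092 and Vamp5 at −0.27 ± 0.23. The calls of Vamp4, Sec22a, Vamp8 and Vamp5 were each lost without at least 3 of the mice in turn, and no Vamp or Sec22 gene was among the 9 that passed when the pool stood for a control mouse.

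Closely related members were compared within each array, since a difference of 2 log2 ratios does not depend on how the array was centred. Of 19 such pairs, 8 had ranges over the mice that did not overlap. How often unrelated genes do so was not computed, and the pairs were listed by hand with earlier results known. The count is therefore no trait of related genes. An exact two-sided sign-flip test over 5 arrays cannot go below p = 0.0625, so no pair could pass on its own, and the lowest value after Benjamini-Hochberg adjustment over the 19 pairs was 0.132. The differences are between ratios and do not compare the amounts of RNA of 2 genes. Arf1 minus its class I relative Arf2 was 1.83 ± 0.49 (SD, n = 5, exact p = 0.0625), from 1.13 to 2.31 over the mice. Arf1 minus Arf3 was 1.27 ± 0.37. Rab4a minus Rab4b was 1.13 ± 0.17, and the smallest difference in any mouse was 0.855. Rab4a itself averaged −0.092 ± 0.16 and did not pass. Sec11a minus Sec11c was 0.79 ± 0.38, and mouse 4 had the smallest difference at 0.22. For Snx1 minus Snx2 the difference was −0.64 ± 0.28 and for Copg1 minus Copg2 −0.59 ± 0.22. The pairs Arf1 with Arf2 and Snx1 with Snx2 had both genes past the threshold on opposite sides of 0. At the other end stood Ap2a1 minus Ap2a2 at 0.017 ± 0.27 (from −0.38 to 0.26 over the mice) and Rab5a minus Rab5b at −0.10 ± 0.26 on 4 arrays, where the spread was wider than the mean. For Ap1m1 minus Ap1m2, Arf4 minus Arf5 and Ap1g1 minus Ap1g2 the mean also lay within 1 SD of 0.

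**Figure D4:**
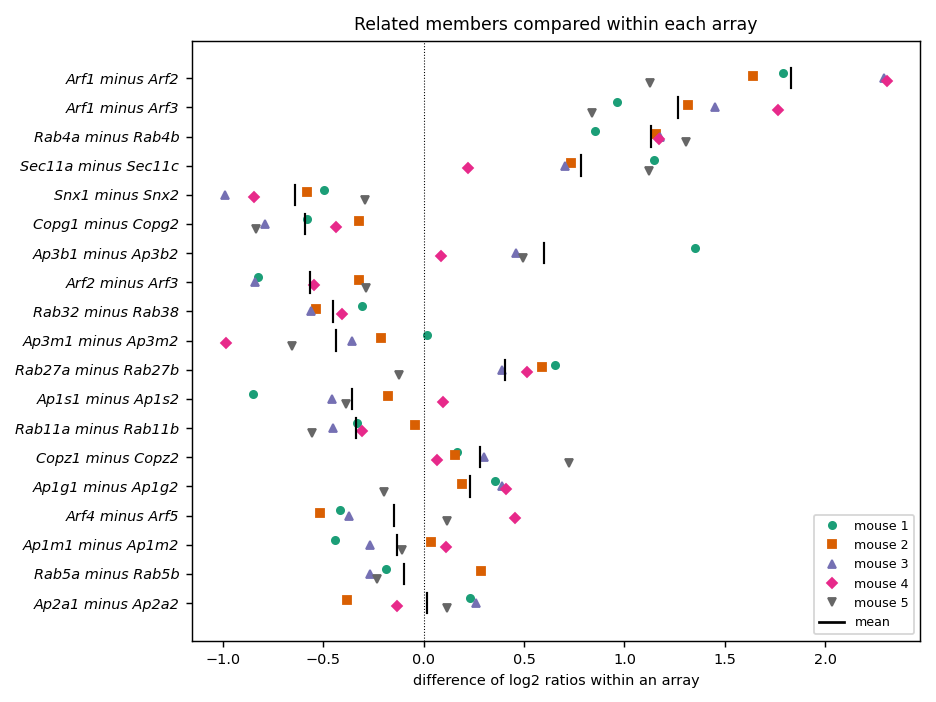
Difference between the log2 ratios of related members within an array (x axis), first gene minus second (y axis). Symbols are the mice and the black line is the mean. Arf1 minus Arf2 lies between 1.13 and 2.31 in the 5 mice, whereas Ap2a1 minus Ap2a2 lies on both sides of 0.

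Partners of the members were counted over 6 lists of other trafficking genes. Of 139 measured genes, 28 passed below 0 (20.1%) and 44 above 0 (31.7%), with a median of 0.01, beside the same background of 23.9% and 25.8%. Of 36 cargo receptors and partners of the endoplasmic reticulum exit and translocon, 8 passed below 0 and 11 above. The signal peptidase subunit Spcs3 stood at 1.03, 1.45, 1.495, 1.14 and 1.16 (mean 1.25 ± 0.20; adjusted p = 6.07e-05), and Spcs1 of the same enzyme averaged −0.57 ± 0.40. With Sec11c at −0.96, the signal peptidase thus had called subunits on both sides. The KDEL receptors, which return escaped chaperones from the Golgi, all passed below 0, Kdelr1 at −0.33 ± 0.20, Kdelr2 at −0.54 ± 0.33 and Kdelr3 at −0.46 ± 0.082. Srp19 of the signal recognition particle was lowest of this list at −0.58 ± 0.27.

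Of 16 ESCRT and multivesicular body partners, 7 passed above 0 and 2 below. Ist1, an ESCRT-III protein, averaged 1.17 ± 0.13 (adjusted p = 2.88e-05) and Tsg101 of ESCRT-I 0.65 ± 0.12, while Hgs of ESCRT-0 averaged −0.36 ± 0.25. Of 22 clathrin and endocytosis genes, 5 passed below 0 and 10 above. They ran from Sh3gl2, an endophilin, at −1.55, −1.44, −1.83, −2.25 and −1.74 (mean −1.76 ± 0.31) to Dnm1l, the dynamin of mitochondrial and peroxisomal fission, at 1.28 ± 0.14. Of 22 SNARE partners, 4 passed below 0, lowest Snap23 of plasma membrane fusion at −0.61 ± 0.33, and 5 above, highest Stxbp3, a syntaxin-binding regulator of exocytosis, at 1.46, 1.78, 1.31, 1.43 and 1.16 (mean 1.43 ± 0.23; adjusted p = 5.11e-05). Of 28 regulators of Rabs and Arfs, 5 passed below 0 and 9 above, from Tbc1d22a, a Rab GTPase-activating protein, at −0.59 ± 0.25 to Chm, the escort protein that presents Rabs for prenylation, at 0.76 ± 0.35. Of 15 tethers and golgins, 4 passed below 0 and 2 above, from Cog6 of the Golgi COG tether at −0.72 ± 0.15 to Golga5 at 0.52 ± 0.16.

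Across mice the members were about as alike as genes in general. Over the 10 pairs of arrays, Pearson's r across the members ran from 0.70 to 0.84, and across everything tested from 0.73 to 0.86. These are correlations across genes that are not independent, on arrays that share the pool. The members' median was 0.024, 0.026, 0.023, 0.03 and 0.072 in mice 1 to 5.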

How the data were processed

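The deposited values were 1 log ratio per feature and array, taken as log2, for 17280 features on 5 two-channel arrays. The scanner, background correction and normalization, the log base and the dyes were not given in the sources used here. No intensities were used, so precision is set by the 5 arrays and how far spots exceeded background is unknown. Arrays 1 to 5 held 11350, 11951, 12082, 12083 and 11639 values. Each array was centred on its median, features with values on at least 4 arrays were kept (10702), and features of 1 symbol were averaged. Symbols came from the platform's annotation, updated through gene identifiers with RefSeq's table, which changed no member's symbol.

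Each mean was compared with 0 by limma 3.58.1 under R 4.3.3 (intercept-only model, empirical Bayes, two-sided, Benjamini-Hochberg over all 10081). The variation among control mice does not enter it, and because no dye-swapped array is labelled, dye bias of single genes remains. The script was tested on simulated data. Whether the mice are independent beyond their labels is not stated. Of 9 members with several kept features, 4 had features with means on opposite sides of 0 (Sec63, Vps26b, Vps35l and Vps50), and the gene means mix them.

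The members, role groups, partner lists and related pairs were chosen with earlier results of these data known. Genes named with values were the 8 lowest and 8 highest called members with all mice on 1 side, the extremes of each role with 3 or more members, the 4 with the largest SD, the extremes of each partner list, and related pairs. Pairs were to be taken by protein identity, but no protein sequences were used here, so known relatives were listed by hand. Roles of 2 symbols were corrected after the values were seen. Other members were named after their values were seen, to complete a role. Promoter sequences are RefSeq's (GRCm38.p6).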

Additional observations from a re-analysis of the deposited data

Results flagged for a closer look

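For 10 of the 51 members named by rule, 1 mouse lay farther from the rest than Dixon's test allows, which chance gives in about 1 in 20 groups. The 10 cannot be set against that rate, since Rab14, Snx21 and Vps29 among them were named for a large SD. Over all members 1 mouse lay so far out for 17 of 137 (12.4%) and over everything tested for 634 of 10081 (6.29%). On the array of mouse 3, Rab14, a GTPase of early endosomes and the Golgi, stood at −2.12 and the retromer subunit Vps29 at −1.72, while the other mice lay between −0.56 and −0.07 for Rab14 and between −0.35 and 0.14 for Vps29. Rab14 averaged −0.70 ± 0.82 and did not pass (adjusted p = 0.0724), but passed without mouse 3 at a mean of −0.35 (adjusted p = 0.0369). On the array of mouse 2, Vps45 stood at 0.154, Trappc4 at −0.613 and Rab5if at 0.313. On the array of mouse 1, Snx21 stood at 1.32 and Vps51, a GARP and EARP subunit, at −0.767. The value of Snx21 in mouse 1 rests on 1 feature, whereas the other mice average 2. On that feature alone the other mice stood between 0.343 and 0.667, so the gap partly reflects the missing feature. On the array of mouse 5, Rab27a stood at 0.237, Vps26c at 0.838 and the AP-1 gamma subunit Ap1g2 at 0.095. Ap1g2 did not pass (adjusted p = 0.115) but passed without mouse 5 at a mean of −0.19 (adjusted p = 0.0352).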

How the results depend on the processing

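The pool counted as 1 control mouse left 4 members below 0 and 5 above, 5.09% of everything tested, and 1 partner gene below and 7 above. A required difference of at least 1.2-fold left 9 and 15 members, 18.3% of everything tested, and 7 and 18 partner genes. The plain one-sample test left 21 members below 0 and 27 above, 38.3% of everything tested, and 17 partner genes below and 32 above. Leaving out 1 mouse at a time gave 22 to 26 members below 0 and 28 to 35 above, beside 40.7% to 45.8% of everything tested on either side. The members' medians then ran from 0.015 to 0.037. The other settings (no centring, scaling, quantile normalization, features on 3 or on all 5 arrays, platform symbols) kept both member counts within 1.5 times. Of the 51 members named by rule, 33 passed. Of these, 25 missed the threshold with the pool as 1 mouse, 17 with the 1.2-fold requirement, 12 with the plain test and 1 without centring. None of these 33 changed sides under any alternative run. Of all 69 called members, 48 passed whichever mouse was left out. The share of everything tested that did so is not given here, so the 48 are no trait of the members. Vps54, at 0.23 ± 0.23, passed only without mouse 5 (mean 0.31; adjusted p = 0.0281). No paired analysis was possible because the series has 1 group of arrays.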
